A study of Mus musculus with 6 samples.

Results

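The 9 genes described here encode the enzymes of the hepatic methionine cycle and of the transsulfuration pathway that drains it, together with nicotinamide N-methyltransferase: Mat1a, Mat2a, Gnmt, Ahcy, Bhmt, Bhmt2, Cbs, Cth and Nnmt. They were picked by symbol from the 39179 Ensembl gene identifiers counted in each library, by a rule that names the genes and uses no measured value, although the list was drawn up with earlier results of these data known. Each of the 9 matched a single identifier and passed the filter on low counts. The livers came from C57BL/6J mice that ate a high-fat diet (60% of energy as fat) for 21 weeks, starting at 5 weeks of age. The obese animals had then been sorted by haematoxylin and eosin staining into isolated steatosis, a fatty liver, and NASH (nonalcoholic steatohepatitis), a fatty liver with inflammation and cell injury. Both groups (3 libraries each) share strain, diet and duration and were separated by histological class. No lean liver was analysed here, and the labels describe neither fibrosis nor sex. That the 3 libraries of a group are 3 separate mice is implied rather than stated, so p-values measure the spread between these samples.

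Methionine is activated by methionine adenosyltransferase to S-adenosylmethionine (SAM), the methyl donor of the cell. Mat1a encodes the catalytic subunit of adult hepatocytes and Mat2a that of most other tissues and of fetal or dividing liver cells. Methyltransferases such as Gnmt, which methylates glycine and disposes of surplus SAM, and Nnmt, which methylates nicotinamide, turn SAM into S-adenosylhomocysteine (SAH), and Ahcy cleaves SAH to homocysteine and adenosine. Homocysteine is either remethylated to methionine, by Bhmt with betaine as donor or by the folate-dependent enzyme Mtr, or committed to cysteine by Cbs and then Cth. Bhmt2 is a paralog of Bhmt that uses S-methylmethionine. The question the comparison addresses is which hepatic transcripts differ between the fatty and the inflamed liver on 1 diet.

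Total counts ran from 13909238 to 18002095 per library, of which 62.0% to 83.9% were mitochondrially encoded. Loci with rRNA-like sequence took 22.3% of NASH 3 and 8.96% of steatosis 2, against 0.596% to 1.06% of the other libraries. The counts outside both classes, to which those of the members belong, differed between the groups without overlap. They numbered 3378730 to 5149189 in steatosis (21.3% to 28.6% of a library) and 2185922 to 2719869 in NASH (15.5% to 17.2%), and the TMM factors ran from 0.964 to 1.4997 and from 0.793 to 0.914. The part of this difference in depth in the results was not tested. The members had between 140 and 14653 counts per library. Levels are CPM, counts scaled to a common library size after TMM correction. That library size holds all genes that passed the filter, the mitochondrial and rRNA-like loci included. None of the 7 tested hepatocyte markers was called in either direction, and their summed level was 11390 to 12333 CPM in steatosis and 9326 to 11815 CPM in NASH, so markers of the labelled tissue were abundant in every library.

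None of the 9 members passed edgeR's quasi-likelihood test at a Benjamini-Hochberg adjusted p under 0.05. Across all 11375 genes tested, 4.82% were called, 1.49% as higher and 3.33% as lower in NASH. At an unadjusted p under 0.05 the count was 3 members (Cbs higher, Mat1a and Cth lower), beside 23.2% of all genes tested. The groups did not overlap for 3 members: Cbs was higher in every NASH library than in any steatosis library, and Mat2a and Cth were lower. Of all genes tested 29.3% did not overlap, 13.1% being higher and 16.2% lower. The median log2 fold change of the 9 members was -0.33, against 0.01 over all genes tested, with 7 members below 0 and 2 above. Steatosis 1 was the highest library for 5 members (Mat1a, Gnmt, Bhmt, Bhmt2 and Cth), and NASH 1 the lowest for 5 (Mat1a, Mat2a, Ahcy, Bhmt and Bhmt2).

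**Figure D1:**
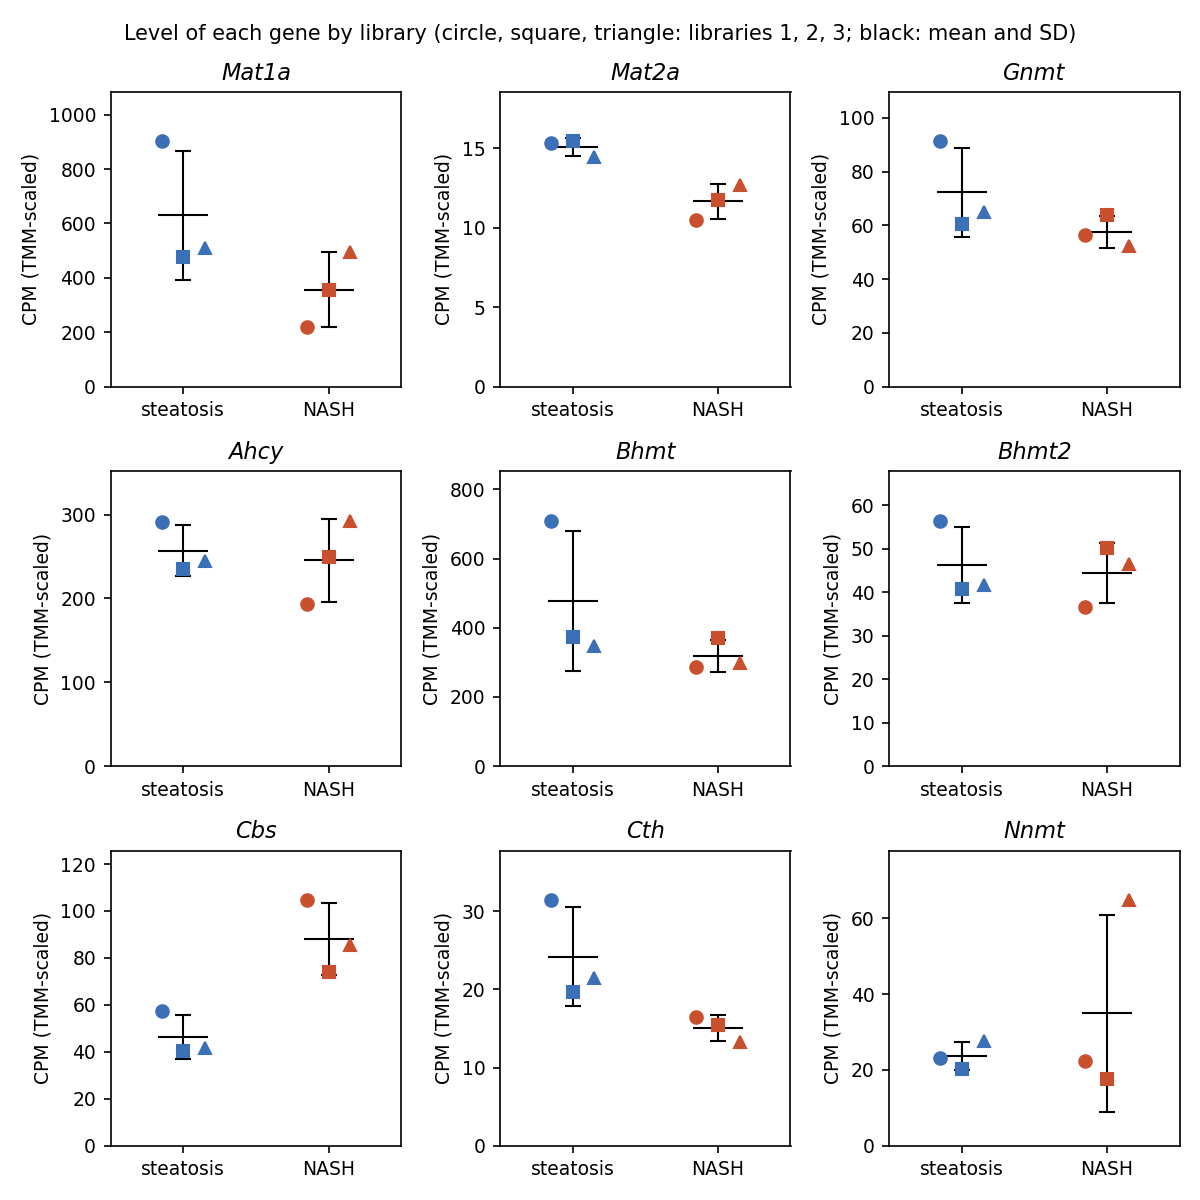
Level of each of the 9 members in CPM (vertical axes) in the 3 steatosis and 3 NASH libraries, with 1 point per library (circle, square and triangle for libraries 1, 2 and 3) and black bars for the mean and SD of each group. Only Cbs lies higher in all 3 NASH libraries and only Mat2a and Cth lie lower, while the high Mat1a and Bhmt means of steatosis come mainly from steatosis 1 and the high Nnmt mean of NASH from NASH 3.

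Mat1a (ENSMUSG00000037798, GRCm38 chromosome 14, 41105035 to 41124412, plus strand) supplies SAM in the differentiated hepatocyte and was the most abundant member per kilobase of exon by the union of its exons. It was measured at 903, 478 and 508 CPM in steatosis 1, 2 and 3. In NASH 1, 2 and 3 it was measured at 220.0, 354 and 496 CPM. NASH 1 had the lowest level and steatosis 1 the highest, and NASH 3 lay within the range of steatosis. The means were 630 ± 237 CPM and 356 ± 138 CPM (SD, n = 3 each). The log2 fold change of -0.82 (SE 0.36) had an adjusted p of 0.201 in the edgeR quasi-likelihood test (Benjamini-Hochberg). Leaving out 1 library moved it between -1.13 and -0.45, the smallest size being reached without steatosis 1. Without steatosis 2 and NASH 3, the libraries rich in rRNA-like reads, it was -1.30 with an adjusted p of 0.203 by the same test.

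Mat2a (ENSMUSG00000053907, chromosome 6, 72432799 to 72439558, minus strand) shares 508 exon bases with the opposite-strand gene Particl, whose reads could not be told apart from its own because strand use in the counting is not given. Its level was 15.3, 15.5 and 14.4 CPM in the steatosis libraries and 10.5, 11.8 and 12.7 CPM in the NASH libraries. All 3 NASH values lay below all 3 steatosis values, with means of 11.7 ± 1.11 CPM and 15.1 ± 0.563 CPM. The log2 fold change was -0.37 (SE 0.17), between -0.43 and -0.30 when any 1 library was left out, and its adjusted p was 0.227 in the edgeR quasi-likelihood test (Benjamini-Hochberg). Mat2a counts were low, at 140 to 389 reads per library.

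The Mat1a to Mat2a balance was taken within each library from counts per exon length, which needs no scaling between libraries. Mat1a exceeded Mat2a 76.1-fold, 40.0-fold and 45.6-fold in steatosis 1, 2 and 3 and 27.1-fold, 38.8-fold and 50.4-fold in NASH 1, 2 and 3. NASH 3 had a larger ratio than steatosis 2 and 3, so the groups overlapped. On the log2 scale the balance was 5.69 ± 0.491 in steatosis and 5.23 ± 0.449 in NASH, a difference of -0.46 with an exact two-sided permutation p of 0.4 (n = 3 each, 0.5 after Benjamini-Hochberg adjustment over 4 ratios, with 0.1 the smallest p possible before adjustment). The difference kept its sign without any 1 library, at -0.67 to -0.18. Mat1a transcript was the more abundant of the pair in all 6 livers, by 27.1-fold or more with the union of exons as length. With the principal transcript as length, a choice made after seeing the data, the ratios were lower, from 17.0-fold in NASH 1 to 47.6-fold in steatosis 1, and the difference between groups was the same by construction.

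Gnmt (ENSMUSG00000002769, chromosome 17, 46725664 to 46729168, minus strand) was measured at 91.4, 60.6 and 65.0 CPM in steatosis and 56.6, 63.8 and 52.2 CPM in NASH. NASH 2 lay above steatosis 2, and the group means of 72.3 ± 16.6 and 57.5 ± 5.87 CPM differed by a log2 fold change of -0.33 (SE 0.23, adjusted p = 0.436, edgeR quasi-likelihood test, Benjamini-Hochberg). Without steatosis 1 the value was -0.11, the smallest of the 6 fits that left out a library.

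Nnmt (ENSMUSG00000032271, chromosome 9, 48591877 to 48605153, minus strand) was measured at 23.0, 20.3 and 27.6 CPM in steatosis and 22.3, 17.6 and 64.8 CPM in NASH. NASH 3 alone stood above the range of steatosis, and NASH 2 was the lowest library of all 6. The means were 23.7 ± 3.70 and 34.9 ± 26.01 CPM, with a log2 fold change of 0.56 (SE 0.42, adjusted p = 0.467, edgeR quasi-likelihood test, Benjamini-Hochberg). Without NASH 3, the library with 22.3% of its counts at rRNA-like loci, the value was -0.24 (adjusted p = 0.600 by the same test), so the sign rested on that library. The Gnmt to Nnmt ratio per exon length was 5.18, 3.90 and 3.07 in steatosis and 3.31, 4.74 and 1.05 in NASH. The log2 difference of -0.64 had an exact two-sided permutation p of 0.5 (n = 3 each), and without NASH 3 the difference was 0.001.

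Ahcy (ENSMUSG00000027597, chromosome 2, 155059310 to 155074497, minus strand), the only enzyme known to cleave SAH in mammals, had nearly equal means in both groups. It was measured at 292, 236 and 244 CPM in steatosis and at 193, 249.6 and 293 CPM in NASH. The NASH libraries held both the lowest and the highest level of the 6. The means of 257 ± 30.2 and 245 ± 49.8 CPM gave a log2 fold change of -0.07 (SE 0.24, adjusted p = 0.902, edgeR quasi-likelihood test, Benjamini-Hochberg), and it ranged from -0.21 to 0.08 when 1 library was left out.

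Bhmt and Bhmt2 lie next to each other on chromosome 13, Bhmt (ENSMUSG00000074768) at 93616675 to 93637961 and Bhmt2 (ENSMUSG00000042118) at 93655720 to 93674302, both on the minus strand. As close paralogs they may share reads, and the authors' handling of such reads is not given in the sources used here. Bhmt also shares 187 exon bases with the opposite-strand gene Gm15622. Bhmt was measured at 709.8, 372 and 348 CPM in steatosis and 287, 371 and 298 CPM in NASH. Steatosis 1 stood far above the other 5 libraries, and NASH 2 lay between steatosis 2 and 3. The means were 477 ± 202 and 319 ± 45.9 CPM (log2 fold change -0.58, SE 0.31, adjusted p = 0.293, edgeR quasi-likelihood test, Benjamini-Hochberg), and without steatosis 1 the log2 fold change was -0.17.

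Bhmt2 was measured at 56.4, 40.8 and 41.6 CPM in steatosis and 36.6, 50.02 and 46.5 CPM in NASH, with overlapping groups. Its means of 46.2 ± 8.83 and 44.4 ± 6.95 CPM gave a log2 fold change of -0.06 (SE 0.23, adjusted p = 0.908, edgeR quasi-likelihood test, Benjamini-Hochberg).

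Transcripts for betaine-dependent and folate-dependent remethylation were compared as the Bhmt to Mtr ratio. The use of the 2 routes was not measured. Mtr, methionine synthase, had only 7 to 26 counts per library. The ratio per exon length was 1551, 1314 and 535 in steatosis and 255, 432 and 231 in NASH, so every NASH library lay below every steatosis library. With the principal transcript as length these ratios were larger, at 1203 to 3489 in steatosis and 519.8 to 972 in NASH. The log2 ratio was 10.01 ± 0.827 against 8.20 ± 0.486, a difference of -1.81 or 3.50-fold, with an exact two-sided permutation p of 0.1 (n = 3 each), the smallest the design allows, and 0.2 after Benjamini-Hochberg adjustment over 4 ratios. Mtr alone was measured at 0.678, 0.420 and 0.965 CPM in steatosis and 1.67, 1.27 and 1.91 CPM in NASH (log2 fold change 1.17, SE 0.38, adjusted p = 0.104, edgeR quasi-likelihood test, Benjamini-Hochberg).

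The largest difference among the members by adjusted p was that of Cbs (ENSMUSG00000024039, chromosome 17, 31608894 to 31637238, minus strand), cystathionine beta-synthase, which commits homocysteine to transsulfuration and is activated by SAM. Cbs was measured at 57.3, 40.4 and 41.7 CPM in steatosis and at 105, 74.1 and 85.4 CPM in NASH. The lowest NASH library, NASH 2, stood above the highest steatosis library, steatosis 1. Means of 46.5 ± 9.40 and 88.0 ± 15.5 CPM corresponded to a log2 fold change of 0.92 (SE 0.24), a 1.90-fold difference. The adjusted p of 0.0543 in the edgeR quasi-likelihood test (Benjamini-Hochberg) fell just short of the threshold. The test called Cbs with upper-quartile scaling (adjusted p = 0.0476, where 1.71% of all genes tested were called higher), with scaling to counts outside the mitochondrial and rRNA-like loci (0.0356, 1.57% of genes) and with no filter on low counts (0.0188, 2.70% of genes), and so did DESeq2 (0.00597, 2.78%) and limma-voom (0.0418, 1.40%). It was not called in any of the 6 fits that left out a library, with log2 fold changes of 0.78 to 1.11 and adjusted p of 0.0737 to 0.197. Nor did the edgeR test call it with DESeq2 size factors (adjusted p = 0.0557) or with the replicate number as a block (0.0528). A filter of at least 1 CPM in 3 libraries gave 0.0511. Without steatosis 2 and NASH 3 the log2 fold change of Cbs was 0.85, with an adjusted p of 0.273 by the same test.

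Cth (ENSMUSG00000028179, chromosome 3, 157894248 to 157925077, minus strand), cystathionine gamma-lyase, which releases cysteine in the next step differed in the opposite direction. It was measured at 31.4, 19.7 and 21.4 CPM in steatosis and 16.5, 15.5 and 13.3 CPM in NASH. Each NASH value lay below each steatosis value, with means of 15.1 ± 1.64 and 24.2 ± 6.34 CPM. The log2 fold change of -0.68 (SE 0.22) had an adjusted p of 0.101 in the edgeR quasi-likelihood test (Benjamini-Hochberg), and was -0.81 to -0.44 when 1 library was left out. Cth was called as lower only with no filter on low counts, a setting in which 4.61% of genes were called lower.

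The Cbs to Cth ratio separated the groups without overlap. Per exon length it was 0.680, 0.766 and 0.725 in steatosis, below 1 in every library, and 2.37, 1.79 and 2.40 in NASH, above 1 in every library. On the log2 scale the ratio was -0.47 ± 0.0862 in steatosis and 1.12 ± 0.242 in NASH. The log2 difference was 1.58, or 2.997-fold, with an exact two-sided permutation p of 0.1 (n = 3 each), the smallest the design allows, and 0.2 after Benjamini-Hochberg adjustment over 4 ratios. Left-out libraries moved the log2 difference only between 1.51 and 1.72, and without steatosis 2 and NASH 3 it was 1.55. With the principal transcript as length the ratio was 0.532 to 0.599 in steatosis and 1.40 to 1.88 in NASH, on the same sides of 1. The side of 1 depends on the lengths assumed, which were 7.485 and 6.226 kb for Cbs and 2.791 and 1.815 kb for Cth. Before division by length, Cbs had more counts than Cth in every library (930, 674 and 1124 against 510, 328 and 578 in steatosis). The difference between groups does not depend on the length. Cbs and Cth catalyse consecutive reactions.

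**Figure D2:**
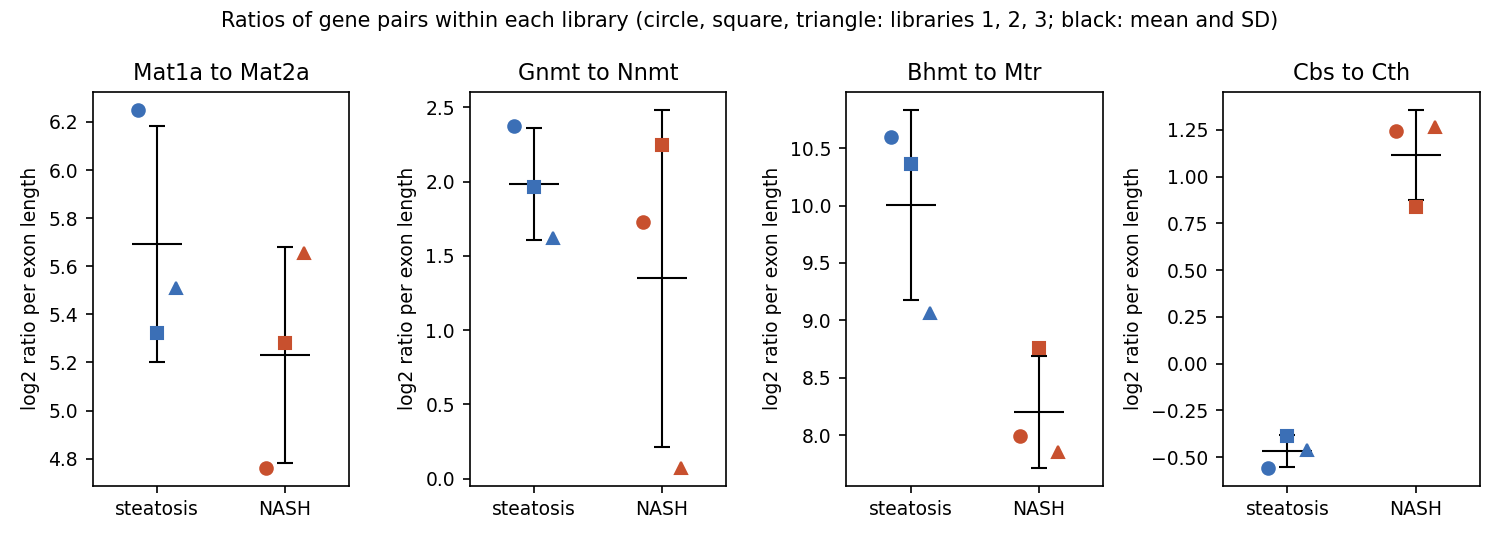
Ratios of 4 gene pairs within each library, from counts per exon length on a log2 axis, with 1 point per library and black bars for the mean and SD of each group. The Cbs to Cth and Bhmt to Mtr ratios do not overlap between steatosis and NASH, while the Mat1a to Mat2a and Gnmt to Nnmt ratios do.

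The sequence upstream of the transcription start is shown for Cbs, the member with the smallest adjusted p, beside Gnmt and Ahcy, as contrasts with differing CpG content whose windows hold no E-box. The stretches are from the RefSeq promoter table (GRCm38.p6), 5′ to 3′ on the minus strand of the genome, with annotated exon bases left out: Cbs at chr17:31637239-31637455, Gnmt at chr17:46729169-46729415 and Ahcy at chr2:155074498-155074747. Capitals mark exact matches on either strand, where GGGCGG is known as the GC box, CACGTG as an E-box, and the third motif as the CCAAT box, which reads ATTGG on the opposite strand.
Cbs: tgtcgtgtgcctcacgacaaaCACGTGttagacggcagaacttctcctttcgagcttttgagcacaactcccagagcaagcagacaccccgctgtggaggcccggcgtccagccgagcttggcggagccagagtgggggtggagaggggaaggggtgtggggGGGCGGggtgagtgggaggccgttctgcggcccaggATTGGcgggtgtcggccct
Gnmt: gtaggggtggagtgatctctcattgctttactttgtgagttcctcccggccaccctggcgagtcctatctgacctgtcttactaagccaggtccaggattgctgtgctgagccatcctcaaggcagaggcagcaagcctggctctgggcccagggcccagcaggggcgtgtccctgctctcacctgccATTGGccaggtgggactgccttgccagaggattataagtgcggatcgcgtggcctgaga
Ahcy: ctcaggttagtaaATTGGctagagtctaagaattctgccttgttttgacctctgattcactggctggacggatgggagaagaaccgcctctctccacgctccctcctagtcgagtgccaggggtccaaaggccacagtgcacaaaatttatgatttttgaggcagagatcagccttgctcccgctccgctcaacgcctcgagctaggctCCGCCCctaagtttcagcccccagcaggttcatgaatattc
Over its full 300-base window, from 250 bases before to 50 after the start and including the exon bases not printed, Cbs held 2 GC boxes, 2 CCAAT boxes and 1 E-box and was the only one of the 6 members with a RefSeq window to hold an E-box, a motif found in 7.15% of all 32851 windows of that length. GGGCGG was found in 35.7% of all windows and CCAAT in 37.4%. Cbs carried 22 CpG, Mat2a 34, Bhmt2 26, Ahcy 13, Gnmt 11 and Bhmt 8, against a median of 7 over all windows. A match describes letters in a window and no binding site.

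Ordered by CPM per kilobase of exon, the members spanned a wide range in both groups, with Mat1a (182 ± 68.3 in steatosis, 103 ± 39.7 in NASH) at the top and Mat2a (3.36 ± 0.125 and 2.60 ± 0.249) at the bottom. Ahcy came next to Mat1a at 91.6 ± 10.8 and 87.4 ± 17.8, followed by Bhmt at 82.8 ± 35.1 and 55.4 ± 7.97 and Gnmt at 60.0 ± 13.8 and 47.7 ± 4.86. In steatosis, among neighbours in the order, the ranges over libraries of Ahcy and Bhmt, of Bhmt and Gnmt, of Bhmt2 and Nnmt, and of Cth and Cbs overlapped. In NASH those of Mat1a and Ahcy, of Bhmt and Gnmt, and of Nnmt and Bhmt2 did, and Mat1a also overlapped Bhmt and Nnmt overlapped Cbs. Pairs low in the order changed places between groups: Cth stood above Cbs in steatosis (8.66 ± 2.27 against 6.21 ± 1.26) and below it in NASH (5.40 ± 0.589 against 11.8 ± 2.06). In CPM without division by length, Cbs stood above Cth in both groups, so this swap depends on the lengths used. Bhmt2 (18.7 ± 3.58 and 18.0 ± 2.82) and Nnmt (15.0 ± 2.35 and 22.2 ± 16.5) also swapped, within overlapping ranges. With the length of the principal transcript instead of the union of exons, a choice made after seeing the data, Bhmt led Mat1a (192 against 182 in steatosis, 128 against 103 in NASH), and Nnmt stood above Bhmt2 in both groups (22.7 against 18.7 and 33.5 against 18.0), so that this pair did not swap.

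**Figure D3:**
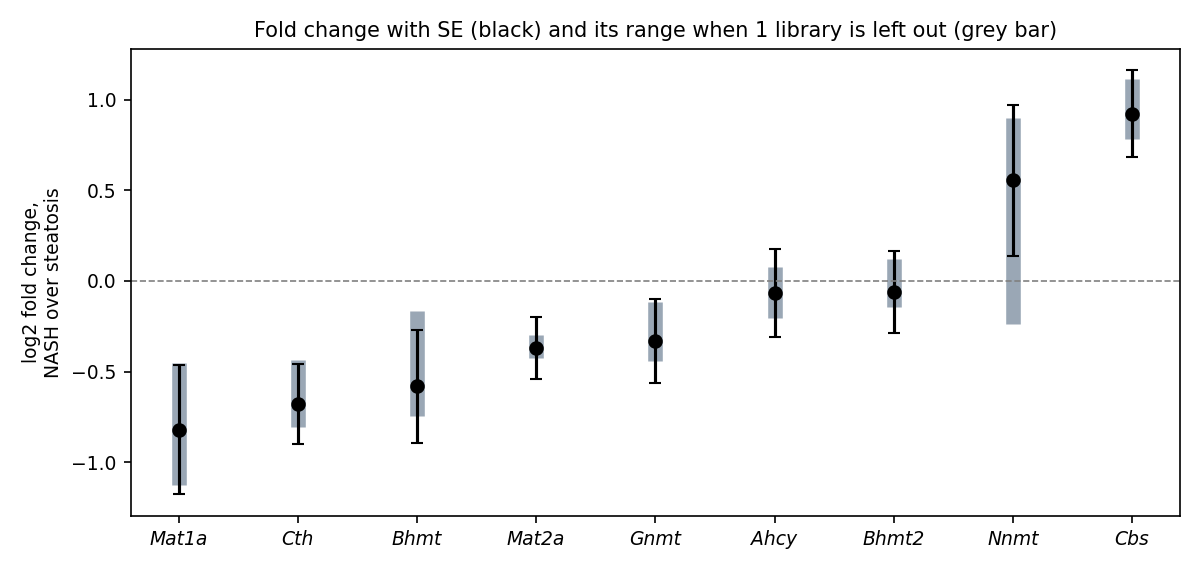
Log2 fold change of NASH over steatosis for the 9 members (points, vertical axis), with SE as black bars and the range of the 6 fits that each left out 1 library as grey bars. The grey bar of Nnmt runs from -0.24 to 0.90 and crosses 0, as do those of Ahcy and Bhmt2, while that of Cbs runs from 0.78 to 1.11.

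The surrounding pathway was read through 8 lists of 84 genes that feed, use or drain the cycle, of which 79 were tested. In NASH 1 of the 79 rose (1.27%) and 7 fell (8.86%), beside the background of 1.49% and 3.33% above, and the median log2 fold change was -0.11. The groups did not overlap for 6 higher and 21 lower genes of the 79, beside 13.1% and 16.2% of all genes tested.

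Of the 8 calls 4 were in 1 list. In the cysteine, taurine, glutathione and sulfide list, 4 of 11 tested genes fell and none rose, beside 3.33% and 1.49% of all genes tested. The list had a median log2 fold change of -0.72, and 8 of the 11 lay lower without overlap, beside 16.2% of all genes tested. Csad, which makes hypotaurine from cysteine sulfinate on the way to taurine, stood at 25.2, 17.8 and 22.6 CPM in steatosis and 7.43, 6.96 and 6.54 CPM in NASH. Its log2 fold change of -1.64 (SE 0.20) had an adjusted p of 0.00374 in the edgeR quasi-likelihood test (Benjamini-Hochberg), and it was called in every fit that left out a library. Csad shares 278 exon bases with Zfp740 on the opposite strand. Mpst stood at 15.0, 16.9 and 15.7 CPM in steatosis and 8.96, 5.89 and 6.63 CPM in NASH, and Tst at 62.4, 63.3 and 53.6 against 36.5, 22.6 and 29.2 CPM, both without overlap. These adjacent genes of sulfur transfer, with 508 bases between their starts on opposite strands of chromosome 15, fell by 1.15 (SE 0.21, adjusted p = 0.0167) and by 1.02 (SE 0.23, adjusted p = 0.0352) on the log2 scale by the same test. Gclm, the modifier subunit of the enzyme that begins glutathione synthesis, fell by 1.12 (SE 0.23, adjusted p = 0.0266). It stood at 30.3, 36.6 and 33.7 CPM in steatosis and 20.4, 11.9 and 13.9 CPM in NASH, and shares exon bases with Gm17494 and Gm6061. Mpst was lost when steatosis 1 (adjusted p = 0.0541), steatosis 2 (0.0714), NASH 2 (0.0575) or NASH 3 (0.0543) was left out, and Gclm without steatosis 1 (0.0719), steatosis 2 (0.1002), NASH 2 (0.0824) or NASH 3 (0.0798). Tst was lost without steatosis 1 (0.115), steatosis 2 (0.126), NASH 1 (0.0531), NASH 2 (0.105) or NASH 3 (0.0880).

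Of 11 tested methyltransferases outside the members, 2 fell and none rose, beside 3.33% and 1.49% of all genes tested. Inmt, which methylates indoleamines with SAM, stood at 101, 85.3 and 71.2 CPM in steatosis and 24.4, 33.3 and 24.6 CPM in NASH, without overlap. It fell by 1.65 on the log2 scale (SE 0.24, adjusted p = 0.00809, edgeR quasi-likelihood test, Benjamini-Hochberg), a call that held in all 6 fits without a library. Pemt, which makes phosphatidylcholine by methylating phosphatidylethanolamine, fell by 0.998 (SE 0.21, adjusted p = 0.0310), from 40.7, 51.6 and 33.5 to 22.4, 20.4 and 20.2 CPM. The Pemt call was lost without steatosis 1 (adjusted p = 0.0873), steatosis 2 (0.125), NASH 1 (0.0740), NASH 2 (0.0910) or NASH 3 (0.0844).

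In the list of nicotinamide and NAD genes, 1 of 9 fell and none rose, beside 3.33% and 1.49% of all genes tested. The gene that fell was Nampt, which returns nicotinamide to NAD and so competes with Nnmt for its substrate. Nampt stood at 25.1, 32.3 and 25.9 CPM in steatosis and 8.27, 8.57 and 14.2 CPM in NASH, and fell by 1.43 (SE 0.24, adjusted p = 0.0134, edgeR quasi-likelihood test, Benjamini-Hochberg), a call lost without steatosis 2 (0.0614), NASH 1 (0.0547) or NASH 2 (0.0550). The single gene that rose was Kyat1, a transaminase that can act on the keto acid of methionine. Its list, polyamine and methionine salvage, had 1 of 12 called, beside 1.49% of all genes tested called as higher. Kyat1 was the only call in that list. It stood at 83.4, 85.2 and 88.5 CPM in steatosis and 197, 160 and 298 CPM in NASH, a 2.55-fold difference (log2 fold change 1.35, SE 0.27, adjusted p = 0.0233 by the same test), lost without steatosis 1 (0.0922), steatosis 2 (0.102), NASH 1 (0.0557) or NASH 3 (0.0543).

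Without steatosis 2 and NASH 3 only Csad of these 8 genes was called (adjusted p = 0.0431 in the edgeR quasi-likelihood test with 4 libraries). With scaling to counts outside the mitochondrial and rRNA-like loci, Tst (adjusted p = 0.0531) and Pemt (0.0518) were not called in the same test.

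No gene was called in the lists of methionine uptake and SAM synthesis (0 of 7), SAH and adenosine (0 of 3), folate (0 of 18) and choline and betaine (0 of 8). Mat2b, the regulatory subunit that joins the Mat2a product, stood at 2.90, 5.33 and 3.19 CPM in steatosis and 2.15, 1.74 and 2.54 CPM in NASH and had a log2 fold change of -0.83 (SE 0.30, adjusted p = 0.133, edgeR quasi-likelihood test, Benjamini-Hochberg). Slc43a1, an amino acid carrier, stood at 1.85, 3.72 and 5.90 CPM in steatosis and 8.06, 6.36 and 20.2 CPM in NASH, without overlap, and had a log2 fold change of 1.55 (SE 0.47, adjusted p = 0.0862 by the same test). NASH 3 was its highest library, and the value was 0.90 without NASH 3, 2.05 without steatosis 3 and 0.86 without both steatosis 2 and NASH 3. In the choline and betaine list, Sardh and Dmgdh, which oxidise sarcosine and dimethylglycine, had log2 fold changes of -0.71 (SE 0.24, adjusted p = 0.111) and -0.52 (SE 0.22, adjusted p = 0.188) by the same test. Sardh stood at 92.2, 102 and 94.3 CPM in steatosis and 43.2, 60.5 and 72.8 CPM in NASH, and Dmgdh at 44.7, 47.0 and 51.5 against 28.6, 29.9 and 41.8 CPM, both without overlap. Adk, which clears adenosine, and Ahcyl1, an Ahcy-like protein, had log2 fold changes of -0.18 and -0.11 (adjusted p = 0.700 and 0.826, edgeR quasi-likelihood test). Mmadhc, of cobalamin handling, stood at 11.8, 6.17 and 6.75 CPM in steatosis and 5.35, 3.82 and 5.08 CPM in NASH, without overlap. Its log2 fold change was -0.79 (SE 0.28, adjusted p = 0.120 by the same test). Mmadhc was called only with no filter on low counts (0.0179), where 4.61% of genes were called lower.

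**Figure D4:**
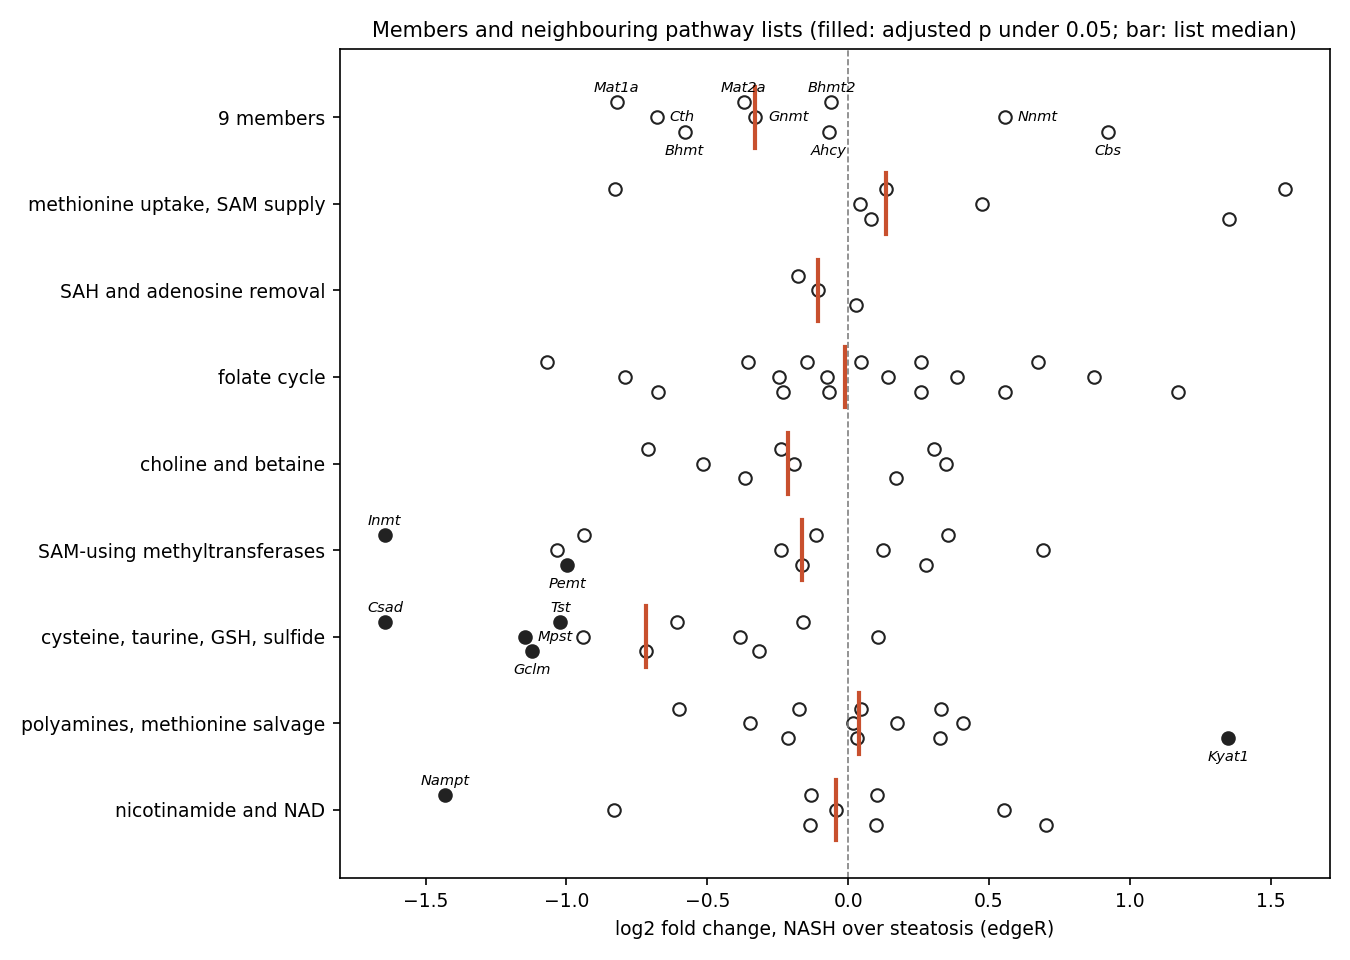
Log2 fold changes of NASH over steatosis (horizontal axis) for the 9 members and the tested genes of the 8 pathway lists, 1 circle per gene, filled where the adjusted p was under 0.05, with a bar at each median. The cysteine, taurine, glutathione and sulfide list has the lowest median, at -0.72, and the methionine uptake list the highest, at 0.13.

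Cell-type markers differed between the groups in the same libraries. Of 8 tested pericentral hepatocyte markers 4 fell (Cyp2e1, Cyp1a2, Lect2 and Slc1a2) and none rose, beside 3.33% and 1.49% of all genes tested. The summed level of the list was 2446 to 3001 CPM in steatosis and 1062 to 1526 CPM in NASH, without overlap. Cyp2e1 was the most abundant of the list, with means of 1645 CPM in steatosis and 735 CPM in NASH. Of the markers not called, Oat (log2 fold change -1.58) and Glul (-0.93) lay lower without overlap. Rgn (-0.23) and Axin2 (0.04) overlapped between groups. The log2 fold changes of the 4 called markers, in the order first named, were -1.16, -1.09, -1.18 and -0.89. Of the 6 fits that left out a library, Slc1a2 was lost in 6, Cyp2e1 and Cyp1a2 in 5 and Lect2 in 4. Adjusted p in these fits reached 0.137, 0.131, 0.116 and 0.0739 (edgeR). Without both libraries rich in rRNA-like reads none of the 4 was called (0.183, 0.190, 0.221 and 0.160, in the same order). Slc1a2 was also lost with scaling outside the mitochondrial and rRNA-like loci (0.0606). Of 9 periportal markers 2 rose (Gls2 and Sds) and none fell, beside 1.49% and 3.33% of all genes tested. The summed levels of the 9 were 461 to 1111 and 552 to 1009 CPM, which overlapped. Below 0 but not called were Hsd17b13 (log2 fold change -0.65), Pck1 (-0.38) and Sult5a1 (-0.05). Gls2 and Sds were each lost in 5 of 6 fits that left out a library, at adjusted p of up to 0.108 and 0.143, and without both libraries rich in rRNA-like reads (0.133 and 0.120, edgeR). Stellate markers summed to 63.7 to 77.3 CPM in steatosis and 43.1 to 59.1 in NASH with 1 of 9 called (Dcn, lower). Without overlap 1 of the 9 lay lower (Dcn) and 1 higher (Acta2), beside 16.2% and 13.1% of all genes tested. Acta2 stood at 1.29, 0.959 and 0.928 CPM in steatosis and 1.95, 1.54 and 3.18 CPM in NASH. Its log2 fold change was 1.05 (adjusted p = 0.107, edgeR quasi-likelihood test), and it was not called. The Dcn call was lost in all 6 fits that left out a library (adjusted p = 0.0584 to 0.115, edgeR), with scaling outside the mitochondrial and rRNA-like loci (0.0525) and without both libraries rich in rRNA-like reads (0.154). Endothelial markers summed to 66.6 to 87.2 and 93.6 to 135 CPM and macrophage markers to 32.3 to 37.3 and 34.4 to 56.4 CPM, with 0 of 8 called in each. Cholangiocyte markers summed to 33.9 to 53.9 and 21.4 to 35.9 CPM with 0 of 4 called. For lymphocytes and adipocytes 1 marker each was tested and neither was called, at 1.11 to 3.12 against 1.54 to 2.50 CPM and 33.8 to 127 against 11.8 to 41.1 CPM, and the adipocyte markers Adipoq, Plin1 and Lep had 0 counts in every library. Whether the zonation markers have a part in the values of Cbs, Cth and the sulfur genes was not tested, and in bulk tissue fewer cells of a type and less RNA per cell cannot be told apart.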

How the data were processed

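Polyadenylated liver RNA was sequenced as paired reads in 3 steatosis and 3 NASH libraries, per the labels' protocols. The submitters' processing notes name TopHat2, HTSeq and the mm10 (GRCm38) genome, without versions. Neither an annotation release nor a strand setting nor a rule for multi-mapping reads is stated in these sources. Raw counts, whole and without normalization, were deposited by the authors for 39179 Ensembl identifiers, of which 37607 had a symbol. Listed genes Prmt1, Rhbg and Tf were not analysed here. Coordinates and exon lengths are from GENCODE M21.

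Counts were analysed in R 4.3.3 with edgeR 4.0.16: default filter on low counts (11375 genes kept), TMM scaling, quasi-likelihood test, Benjamini-Hochberg adjustment over all genes tested, and a threshold of 0.05. Fold changes are NASH over steatosis. The SE was derived from the fold change and the F statistic, an approximation. Ratios of 2 genes within a library, both members except for Mtr, used counts per exon length and a two-sided exact permutation test. Whole-table alternatives were DESeq2 1.42.0, limma-voom (limma 3.58.1), other scalings and filters, the replicate number as a block, and libraries left out. The fit was tested on simulated data.

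The members, the lists and the tests were chosen with earlier results of these data known. The text names all 9 members and, from each pathway list, the called genes (at most 4, by p) or, where none was called, the 2 with the smallest p. Called cell-type markers are named too, chosen after their values were seen. Total counts per library were 13909238 to 18002095, and intervals from them would cover counting error only.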

Additional observations from a re-analysis of the deposited data

How the results depend on the processing

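Mtr had only 7 to 26 counts per library, and every full comparison had 3 libraries per group. The part of depth and of group size in the calls was not tested. Of 135 member results under 15 alternative settings, 121 kept direction and side of the threshold, 8 reversed and 6 passed the threshold, and 6 members never reversed; the causes were not tested.

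The number of members called as higher was 0 and became 1, Cbs, with DESeq2, limma-voom, upper-quartile scaling, scaling to counts outside mitochondrial and rRNA-like loci, and no filter. The number called as lower became 1, Cth, with no filter. Leaving out any 1 library gave 0 to 0. Ahcy and Bhmt2 reversed to 0.044 and 0.063 with scaling to counts outside those loci, a scaling that moved the median of all genes from 0.01 to 0.12. With 1 library left out, Ahcy ranged from -0.21 to 0.080, Bhmt2 from -0.14 to 0.12, Ahcyl1 from -0.22 to 0.12, Nnmt from -0.24 to 0.90 and the log2 Gnmt to Nnmt ratio difference from -1.08 to 0.0010. Without steatosis 2 and NASH 3, the libraries rich in rRNA-like reads, Nnmt reversed to -0.34.

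Over all genes, 169 were higher and 379 lower. The counts were 316 higher with DESeq2, 535 higher and 912 lower with no filter, and 179 higher and 222 lower with the scaling outside those loci, which moved the higher share of calls from 30.8% to 44.6%. They were 17 higher and 19 lower in the 4 libraries, and 29 to 170 higher and 77 to 298 lower with 1 library left out. Pathway genes called as higher numbered 2 with DESeq2, 3 with no filter, 0 in the 4 libraries and 0 to 1 with 1 library left out, and those called as lower 13, 1 and 2 to 7 with no filter, the 4 libraries and 1 library left out.

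The labels give both groups the replicate numbers 1 to 3 without saying that they pair mice. Deviations of same-numbered libraries correlated at 0.035, -0.012 and 0.071, and steatosis 1 correlated best with NASH 2, so the numbers were not taken as pairs. With the replicate block 153 genes were higher and 313 lower, and 2 pathway genes were called as higher, Kyat1 and Slc43a1.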

Other observations

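Members varied together across the 6 libraries to differing degrees, given here as descriptions that share library and depth. Pearson's r of log2 CPM was 0.97 between Gnmt and Bhmt, 0.92 between Gnmt and Cth, 0.86 between Mat1a and Mat2a, -0.88 between Mat2a and Cbs and -0.56 between Cbs and Cth (n = 6 libraries each). Among the 3437 genes whose log2 CPM averaged 3 or more, the patterns most like Mat1a were those of Snf8 (r = 0.985), Ctsl (0.984) and Elmod3 (0.983). Those most like Mat2a were Sdhd (0.986), Igfbp4 (0.986) and Ndufb10 (0.985). Igfbp4 and Ndufb10 fell in NASH, by 1.01 and 0.94 on the log2 scale, with adjusted p of 0.0343 and 0.0317 in the edgeR quasi-likelihood test (Benjamini-Hochberg). Both were picked in these same libraries for following Mat2a, which was lower in every NASH library. The choice thus favoured genes that fall, and these p-values are no separate evidence. Of all genes tested 3.33% were called lower.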
